A study of Mus musculus with 8 samples.

Results

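A cassette exon is taken into an mRNA or left out of it as a whole, and of mutually exclusive exons a transcript takes one or the other. A composite splicing event combines several splice sites and can mix such patterns. The members described here were all rows that the authors' deposited table of junction usage lists under these 3 classes, whatever the size of the change. They made up 219 of the 498 events of that table: 131 cassette exons, 4 pairs of mutually exclusive exons and 84 composite events. The other 279 events were alternative 5′ sites, alternative 3′ sites and retained introns. The members lay in 182 named genes, and 29 members, all composite, had no gene name.

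Hepatocytes were isolated from C57BL/6J mice with both Srsf3 alleles floxed and were cultured. The 4 AAV-Cre libraries came from cells exposed for 48 h to an adeno-associated virus carrying Cre recombinase, and their genotype label is Srsf3-KO. The 4 AAV-GFP libraries came from cells with the same floxed alleles exposed for 48 h to a virus carrying green fluorescent protein, with the genotype label Srsf3-flox. Both groups thus share the floxed alleles, the strain, the culture and a viral infection, and the labels do not give the animals behind each library, their age or the promoter that drives Cre. The libraries were stranded mRNA, sequenced as paired ends, and the comparison asks which exons differ between Srsf3-KO and Srsf3-flox cells. The groups also differ in the gene that the virus carries, and no group received Cre without floxed alleles. Effects of Cre and of the loss of SRSF3 therefore cannot be told apart.

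SRSF3 is the smallest of the SR proteins, a family that binds exons through an RNA recognition motif and helps the spliceosome to define them. An exon that is skipped when such a protein is lost shortens the protein if its length is divisible by 3 and otherwise shifts the reading frame. Some exons do the reverse: they bring a premature stop codon into the mRNA, which is then degraded by nonsense-mediated decay, and many genes of splicing factors hold such an exon. Very short exons, often called microexons, are known to need special help to be recognised.

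The shortest cassette exons show what was measured, since their whole sequence can be given. All sequences are exons of GENCODE vM21 transcripts (mm10), 5′ to 3′ on the transcript strand. Most internal coding exons of vM21 under 28 nt hold no SRSF3 word as defined below. The absence of a word therefore does not set exons this short apart. The 6 annotated exons under 28 nt and the 2 of 30 nt were the following, and none of the 8 held such a word.
Psap, chr10:60297537-60297545, plus strand: caggatcag
Supt5, chr7:28330018-28330029, minus strand: aagagattgaag
Afdn, chr17:13848355-13848375, plus strand: gaagtagaccaggttgatcag
Rapgef2, chr3:79082624-79082647, minus strand: gaagaagaagtggcggagtctggg
Arhgef12, chr9:43044264-43044287, minus strand: gtttcccctcaaaaaacctataag
Flna, chrX:74232967-74232990, minus strand: tgtcaatcggaggtcacgggctag
Luc7l2, chr6:38598785-38598814, plus strand: gtcccgatcacatagcaagaatcccaaaag
Arhgef11, chr3:87718229-87718258, plus strand: catttcatattcccttgtcccctgtggaag

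A second set shows 30 nt of the 6 exons that fell in AAV-Cre and did hold a word linked to SRSF3 binding, with that word in capitals. A word has 5 letters: A or T, then C, then A or T at the next 2 places, then C. This gives 8 words, such as ACAAC or TCTTC, counted on the transcript strand only. The words were chosen from knowledge of SRSF3 and not found in these data.
Necap1, bases 53 to 82 of 82, chr6:122881553-122881582, plus strand: ctttaatgtttccctgcaagatcACTTCaa
Mlx, bases 60 to 89 of 90, chr11:101088295-101088324, plus strand: tccaccagtgccTCTTCtgtccccaacaca
Pcbp2, bases 50 to 79 of 93, chr15:102485997-102486026, plus strand: cgtccatgtgccTCAACcctgacctggagg
Mbnl2, bases 33 to 62 of 95, chr14:120404670-120404699, plus strand: gtctctgcagcaACAACtcctgcaacaagt
Hnrnph1, bases 28 to 57 of 139, chr11:50381486-50381515, plus strand: cattgccggtggACTTCcaggggaggagta
Cd68, bases 153 to 182 of 434, chr11:69665755-69665784, minus strand: agctccggacccACAACtgtcactcataac

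The values are changes in percent spliced in (PSI, a share from 0 to 1), AAV-Cre minus AAV-GFP, with the authors' p and q. The table lists events at p below 0.05 and holds 1 value per comparison, so values per library, the spread between libraries and the depth are unknown. An event was called at a q of 0.05 or less with a change of at least 0.1, and "rose" and "fell" are used of called exons only. By this rule 33 of 219 members were called (15.1%), against 57 of all 498 listed events (11.4%) and 24 of the 279 listed events outside the members (8.6%). The calls were 16 of 131 cassette exons (12.2%), 17 of 84 composite events (20.2%) and 0 of 4 mutually exclusive pairs (0%), all 4 of which have p below 0.05. The other classes had 8.23% (alternative 5′ sites), 7.84% (alternative 3′ sites) and 15.8% (retained introns). The members' shares of calls are thus near that of the whole list for cassette exons and above it for composite events. These shares are not on like terms. An event without a finite change could not be called: 6 of the 219 members, 32 alternative 5′ sites and 25 alternative 3′ sites. A composite event was judged on the largest of its changes, and 9 of the 17 composite calls are of events without a gene name.

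Of the 16 called cassette exons, 11 fell (8.4% of 131) and 5 rose (3.82%). With the retained introns of the same table added, which together with cassette exons have 1 signed value per event, 11 of 150 fell (7.33%) and 8 of 150 rose (5.33%). Among all 131 listed cassette exons 79 had a lower and 52 a higher value in AAV-Cre. The median absolute change was 0.226 for the lower and 0.216 for the higher exons, and 72 of 131 had a value of at least 0.2 in size. The other end of the list was small: 37 of the 131 had a size under 0.1, down to 0.000540 for an exon of the ribosomal protein gene Rpl23 per the authors' deposited table (q = 0.500).

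Of the 11 exons that fell, Smc5, Supt5, Mta1 and Mlx had the largest values. Exon 19 of Smc5 (45 nt), a subunit of the SMC5/6 complex that keeps chromosomes intact, fell by 0.643 (q = 0.00955) per the authors' deposited table. Exon 18 of Mta1 (36 nt), a subunit of the NuRD chromatin remodelling complex, fell by 0.533 (q = 0.0124) per the authors' deposited table. Exon 3 of Mlx (90 nt), the dimer partner of the glucose-responsive transcription factor ChREBP, fell by 0.509 (q = 0.00444) per the authors' deposited table. The length of the exons of Smc5, Mta1 and Mlx is in each case divisible by 3, and each lies in coding sequence.

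The microexon of Supt5, exon 5 of the transcription elongation factor SPT5, fell by 0.540 (q = 0.0172) per the authors' deposited table. It is the shortest of the called exons and adds 12 nt, with the sequence given above. By the authors' deposited table of local variations, which gives a PSI for each group, its inclusion junction stood at 0.881 under AAV-GFP and 0.253 under AAV-Cre. No vM21 transcript joins the exons on either side of it directly, so the skipped form is not annotated. Here and below, a group PSI is the share of a junction among those listed with it, not of the whole exon. Unless said otherwise, it is that of the junction into the exon where listed, and else of the junction out of it.

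Exon 10 of Nadk (158 nt), the cytosolic kinase that makes NADP from NAD, fell by 0.446 (q = 0.000646) per the authors' deposited table. Its group PSI was 0.988 under AAV-GFP and 0.457 under AAV-Cre per the authors' deposited table of local variations. The intron before it measures 76 nt, the shortest next to any of the 131 exons. Nadk was also listed with a composite event further 5′, where the largest value was -0.402 (q = 0.379) per the authors' deposited table. The length of exon 10 leaves a remainder of 2 when divided by 3, so its skipping shifts the frame.

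Exons of 3 RNA-binding splicing regulators fell. Exon 9 of Pcbp2 (93 nt), a poly(C)-binding protein, fell by 0.351 (q = 0.00965), and exon 5 of Hnrnph1 (139 nt), which binds runs of G, fell by 0.230 (q = 0.0259), per the authors' deposited table. Exon 8 of Mbnl2 (95 nt), a muscleblind protein, fell by 0.113 (q = 0.0479) per the authors' deposited table, the called value nearest to the q threshold. Per the authors' deposited table of local variations the group PSI went from 0.594 to 0.113 for Pcbp2, from 0.996 to 0.650 for Hnrnph1 and from 0.845 to 0.501 for Mbnl2. The junction out of the exon of Hnrnph1 changed less, from 0.998 to 0.758, per the same table. Of these 3 exons, that of Pcbp2 alone keeps the frame. It overlaps an exon of another annotated gene, Gm27406, on the same strand, so its junction counts may be shared.

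The remaining exons that fell were those of Rnf213, Necap1 and Cd68. An exon of 129 nt in Rnf213, a very large ubiquitin ligase, fell by 0.226 with the lowest q of the cassette exons (0.000350) per the authors' deposited table, and its group PSI by local variations went from 0.295 to 0.002. This exon (chromosome 11, 119405627 to 119405755) overlaps no annotated exon. Exon 4 of Necap1 (82 nt), an adaptor of clathrin-coated vesicles, fell by 0.156 (q = 0.00444) per the authors' deposited table. Exon 2 of Cd68 (434 nt), a lysosomal glycoprotein of macrophages, fell by 0.106 (q = 0.0178) per the authors' deposited table, and its group PSI by local variations went from 0.975 to 0.779.

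Cd68 was the only one of 26 marker genes of liver cell types with a listed event of any class. None of the 6 hepatocyte markers and none of the stellate, endothelial, cholangiocyte and lymphocyte markers were listed. The tables hold no expression levels, so the labelled cell type could not be checked further. In bulk RNA, fewer cells of a type and less RNA per cell cannot be told apart, and the part of macrophage RNA in the Cd68 value was not tested.

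Among the 5 exons that rose, the highest value was that of a microexon. The exon of 21 nt in Afdn, exon 16 of the gene of afadin, which ties nectins to actin at cell junctions, rose by 0.589 (q = 0.00489) per the authors' deposited table. That of 13 nt in 2010111I01Rik (chromosome 13, 63286815 to 63286827) rose by 0.540 (q = 0.0276) per the authors' deposited table, and its group PSI by local variations went from 0.017 to 0.415. The start of this exon is annotated and its end is not. The exon of 44 nt in Rab2a, a GTPase of transport between endoplasmic reticulum and Golgi, rose by 0.146 (q = 0.0120) per the authors' deposited table and overlaps no annotated exon.

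The exon of 270 nt in Fn1, exon 33 of the fibronectin gene and known as the extra domain A exon, rose by 0.291 (q = 0.0291) per the authors' deposited table. The group PSI of the junction that leaves it went from 0.106 to 0.453, and that of the junction that enters it from 0.005 to 0.388, per the authors' deposited table of local variations. It was the only long exon among those that rose. An exon of 70 nt in Hnrnpl, an hnRNP that controls its own mRNA level, rose by 0.426 (q = 0.0146) per the authors' deposited table.

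**Figure D1:**
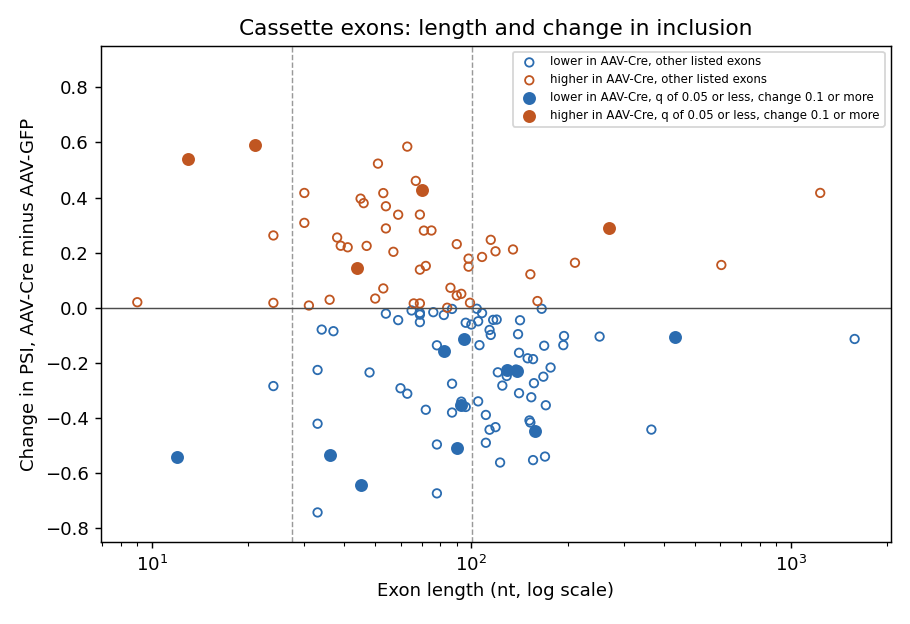
Change in PSI (AAV-Cre minus AAV-GFP, vertical axis) of each of the 131 listed cassette exons against exon length in nt (log scale); filled points are the 16 called exons, open points the other listed exons, and dashed lines separate the length classes. Above 100 nt most points lie below 0 (44 of 54), and between 28 and 100 nt they lie on both sides (33 below and 37 above).

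The lower exons were longer than the higher ones in the median. The median length was 108 nt for the 79 lower exons and 66.5 nt for the 52 higher exons, with 90 nt for all and a range from 9 to 1584 nt. Of the 54 exons over 100 nt, 44 were lower and 10 higher. Of the 70 exons of 28 to 100 nt, 33 were lower and 37 higher, and of the 7 exons under 28 nt 2 were lower and 5 higher. Short, middle and long exons made up 5.34%, 53.4% and 41.2% of the 131, and 6.06%, 51.5% and 42.4% of the 99 that are wholly coding. The 165378 internal coding exons of vM21 divide into 1.05%, 32.7% and 66.3%, with a median of 123 nt. That reference is not limited to cassette exons. These are counts of events, which are not replicates of the infection, so no test was made.

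The 7 microexons had values of both signs. Besides Supt5, Afdn and 2010111I01Rik, which were called, the exon of 24 nt in Rapgef2, an exchange factor for the GTPase Rap, had -0.284 (q = 0.381) per the authors' deposited table. That of 24 nt in the actin crosslinker Flna had 0.263 (q = 0.259), and that of 24 nt in the exchange factor gene Arhgef12 had 0.0182 (q = 0.487), per the authors' deposited table. The shortest, of 9 nt in Psap, the precursor of the saposins that activate lysosomal lipid hydrolases, had 0.0205 (q = 0.387) per the authors' deposited table. Of the 7 lengths, 6 were divisible by 3, the exception being the exon of 13 nt. Just above this class, the exons of 30 nt shown above had 0.308 in Luc7l2, a U1 snRNP-associated factor (q = 0.576), and 0.417 in Arhgef11, a related exchange factor (q = 0.590), per the authors' deposited table.

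In the middle class the largest listed values belonged to exons that were not called, apart from Smc5. An exon of 33 nt in Numb, an inhibitor of Notch signalling, had -0.742, the largest value of any cassette exon (q = 0.176), per the authors' deposited table. The exon of 78 nt in the SUMO protease gene Senp1 had -0.673 (q = 0.298) per the authors' deposited table. On the higher side, an exon of 63 nt in the kinase gene Map4k3 had 0.585 (q = 0.547), one of 51 nt in Myef2 had 0.523 (q = 0.466) and one of 67 nt in the Mediator gene Med6 had 0.461 (q = 0.456), per the authors' deposited table. A large change in this list therefore does not by itself come with a low q.

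In the long class the lower exons with the largest values were those of Samhd1, a dNTP hydrolase (123 nt, -0.561, q = 0.418), Kat5, the acetyltransferase TIP60 (156 nt, -0.552, q = 0.565), and Clcn7, a lysosomal chloride exchanger (170 nt, -0.539, q = 0.108), per the authors' deposited table. Clcn7 also had an alternative 5′ site that was called, with -0.606 (q = 0.00464) per the authors' deposited table. On the higher side Itpr1, a calcium channel of the endoplasmic reticulum, had 0.417 (1236 nt, q = 0.533), and a 5′ UTR exon of Cystm1 had 0.247 (115 nt, q = 0.461), per the authors' deposited table. The stretch listed for Itpr1 starts and ends at annotated sites but overlaps 3 annotated exon models, so it is not a single annotated exon.

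**Figure D2:**
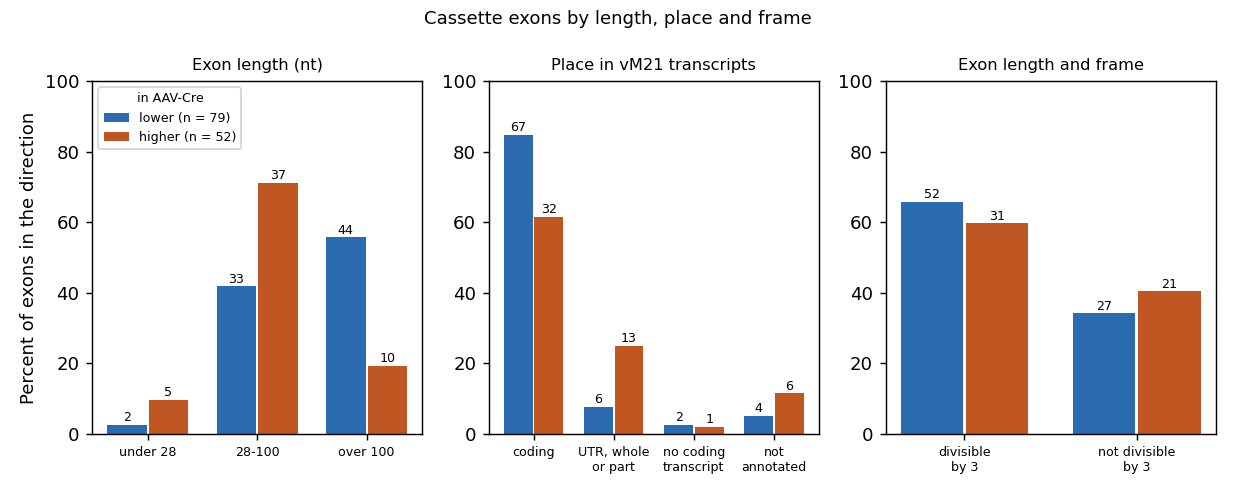
Percent of the 79 lower and 52 higher cassette exons (vertical axes) by length class, by place in vM21 transcripts and by divisibility of the length by 3; the number over each bar is the count of exons. Long exons make up 44 of 79 lower and 10 of 52 higher exons, and UTR exons, whole or in part, 6 and 13.

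An exon of coding sequence keeps the reading frame when its length is divisible by 3. Among the 99 exons that lie wholly in coding sequence this held for 68 (68.7%), 44 of 67 lower and 24 of 32 higher. Of the internal coding exons of vM21, a reference not limited to cassette exons, it held for 41.1%. Over all 131 exons, which include UTR and unannotated ones with no established frame, 83 lengths were divisible by 3 (63.4%). The share over exons of any place was also taken by the size of the change. Of the 43 lower exons with a change of at least 0.2, 34 had a length divisible by 3 (79.1%), and all 17 of these 43 that were 28 to 100 nt long did. Of the 36 lower exons with a smaller change 18 did (50%). In the higher exons the counts were 17 of 29 (58.6%) at 0.2 or more and 14 of 23 (60.9%) below. Among the 16 called exons 8 had a length divisible by 3, and Nadk, Hnrnph1, Mbnl2, Cd68 and Necap1 were the 5 exons that fell and shift the frame.

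By place, 99 of the 131 exons were wholly coding in at least 1 transcript, of which 67 were lower and 32 higher. Another 19 touched a UTR and were wholly coding in no transcript. Such exons numbered 9 when only basic and 11 when only protein-coding transcripts were read. Of the 19, 13 crossed an edge of the coding sequence within a transcript (4 lower, 9 higher), 5 lay in a 5′ UTR (2 lower, 3 higher) and 1 in a 3′ UTR (higher). These overlap with the exons linked to nonsense-mediated decay described further on, of which 7 are part UTR and 1 lies in a 3′ UTR. A further 3 lay in genes or transcripts with no coding sequence, among them the snoRNA host gene Gas5, whose exon of 37 nt had -0.0845 (q = 0.0291) per the authors' deposited table and missed the size threshold. The last 10 matched no annotated exon, of which 4 were lower and 6 higher.

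Of these 10 unannotated exons, those of Rnf213, Rab2a and H2-Q4 overlap no annotated exon on their strand. The other 7 overlap at least 1: those of Vapa, Tmem258, AW112010, Lamp2, Med6 and 2010111I01Rik have 1 annotated end and 1 that is not, and Itpr1 was described above. H2-Q4 belongs to the MHC class I genes, near-identical copies between which reads can be shared, so its place is uncertain. All 10 have an annotated skipping junction.

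Exons linked to nonsense-mediated decay stood mostly on the higher side. In vM21, 9 of the 131 exons occur on a transcript marked for nonsense-mediated decay and on no protein-coding transcript. Of these 9, 8 were higher in AAV-Cre, against 52 of all 131 listed cassette exons. The exon of Hnrnpl was the only one of the 9 that was called. Per the authors' deposited table the values of the others were 0.416 (53 nt, q = 0.205) and 0.280 (71 nt, q = 0.235) for 2 exons of the splicing factor gene Prpf38b. For Clk4, a kinase that phosphorylates SR proteins, the value was 0.338 (59 nt, q = 0.130), and for Ap3s1, an adaptor of lysosomal transport, 0.288 (54 nt, q = 0.568), per the authors' deposited table. Dnajc5, a chaperone of secretory vesicles, had 0.281 (75 nt, q = 0.133), Gtf2a2, a subunit of TFIIA, 0.205 (119 nt, q = 0.542), and Rabggtb, a subunit of the enzyme that prenylates Rab proteins, 0.179 (98 nt, q = 0.547), per the authors' deposited table. The exception was the RNA helicase gene Ddx39, with -0.0443 (59 nt, q = 0.168) per the authors' deposited table. Of the 9 lengths, 7 are not divisible by 3. With bulk RNA, more inclusion of such an exon and slower decay of the mRNA that holds it cannot be told apart.

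Sequence features that the listing did not use were set side by side for the directions, with no test. Among coding exons, 44 of 67 lower exons held at least 1 of the SRSF3 words (65.7%) and 9 of 32 higher exons did (28.1%). The share over all 165378 internal coding exons of vM21 was 65.1%, so it was the higher exons whose share lay away from the reference. The higher coding exons were also shorter, with a median of 61 nt against 123 nt in the reference. Length enters such a share, and per 100 nt the words numbered 1.11 in lower, 0.680 in higher and 1.00 in reference exons. Within the middle class 15 of 28 lower and 7 of 23 higher coding exons held a word, against 47.2% of reference exons of that length. In the long class it was 29 of 37 and 2 of 5, against 74.8%. Per 100 nt the middle class had 1.19 words in lower, 0.847 in higher and 0.967 in reference exons. The long class had 1.10, 0.539 and 1.01. At a change of at least 0.2, 20 of 38 lower (52.6%) and 3 of 13 higher coding exons (23.1%) held a word. The lower share was thus under that of all reference exons at this size of change. Per 100 nt these exons had 1.26 words in lower and 0.509 in higher.

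The 4-letter word CATC was counted separately and lies inside 2 of the 8 words. It occurred in 30 of 67 lower (44.8%) and 10 of 32 higher coding exons (31.3%), against 48.2% of reference exons. Within length classes the order was the reverse. In the middle class CATC occurred in 21.4% of 28 lower and 26.1% of 23 higher coding exons, against 30.3% of reference exons. In the long class it occurred in 64.9% of 37 lower and 80% of 5 higher coding exons, against 57.6%. The median GC content of coding exons was 52.3% for the lower and 46.8% for the higher, with 50.8% in the reference. In the middle class, however, it was 46.7% for the lower and 46.7% for the higher coding exons, with 49% in the reference. In the long class it was 53.6% for 37 lower and 45.8% for only 5 higher coding exons, with 51.6% in the reference. Among the exons that fell, the words were absent from 4 of 10 with a sequence, Nadk, Smc5, Mta1 and Supt5. A word in an exon describes its letters and is not evidence of binding.

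The flanking introns were shorter for lower than for higher exons in the median. The intron before the exon had a median length of 1065 nt for lower and 1511 nt for higher exons, and the intron after it 1047 nt and 1995 nt. In the middle class the order held for the intron after the exon (1246 nt and 1892 nt). For the intron before the exon it was the reverse there (1380 nt for lower and 1168 nt for higher exons). Introns ranged from 76 to 74472 nt. The form without the exon was annotated for 61 of 79 lower and 45 of 52 higher exons. It was annotated for all 29 higher exons and 37 of 43 lower exons with a change of at least 0.2, and for 23 of the 37 exons with a change under 0.1.

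**Figure D3:**
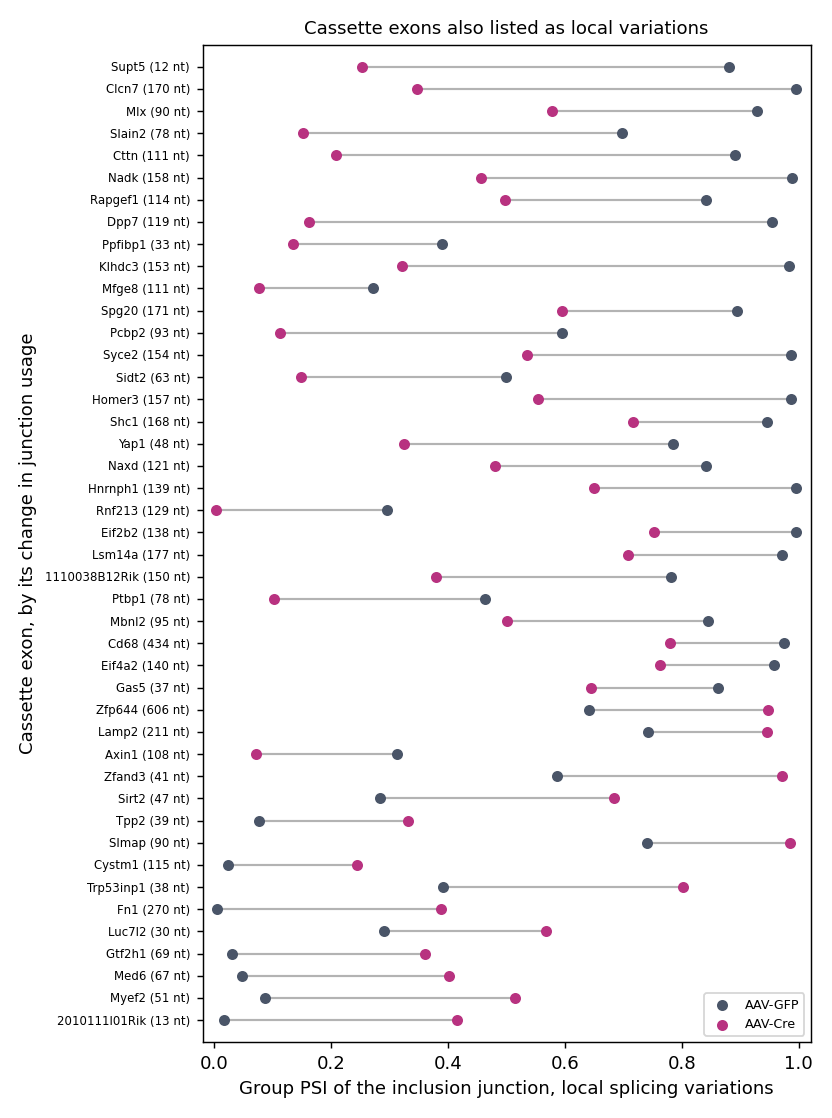
Group PSI of the inclusion junction (horizontal axis, 0 to 1) in AAV-GFP and AAV-Cre for the 44 cassette exons that the authors' deposited table of local variations also holds, ordered by the change in junction usage. The upper 29 rows move to the left in AAV-Cre and the lower 15 to the right, except Axin1, which lies at 0.313 under AAV-GFP and 0.071 under AAV-Cre.

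For 44 of the 131 cassette exons the authors' deposited table of local variations gave a group PSI, so the starting level can be seen. The 2 tables come from the same libraries, so the values are set side by side and support nothing further. Of the 44, 29 were lower and 15 higher by junction usage, and 10 were called. Many lower exons were nearly always included in AAV-GFP. Per the authors' deposited table of local variations this held for Dpp7, a lysosomal peptidase (0.954 to 0.162), Clcn7 (0.996 to 0.346), Klhdc3 (0.983 to 0.321) and Syce2 (0.987 to 0.535). The junction out of the exon can differ: it went from 0.996 to 0.290 for Clcn7 and from 0.993 to 0.475 for Klhdc3. Others were partly included, such as those of the actin-binding Cttn (0.891 to 0.208), the transcription coactivator Yap1 (0.784 to 0.325), Ppfibp1 (0.389 to 0.134) and Ptbp1 (78 nt, 0.463 to 0.102), per the authors' deposited table of local variations.

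Higher exons started from low or intermediate levels, which is in part fixed in advance. PSI ends at 1 and the matched changes were at least 0.195 in size, so an exon that gains inclusion cannot start near 1. In the same way, an exon that loses inclusion cannot start near 0. The exons of Gtf2h1, a TFIIH subunit (0.031 to 0.361), Myef2 (0.087 to 0.514), Med6 (0.048 to 0.402) and Tpp2 (0.077 to 0.331) were rarely included in AAV-GFP per the authors' deposited table of local variations. Those of Zfand3 (0.586 to 0.971), Slmap (0.740 to 0.985) and Lamp2, a lysosomal membrane protein (0.742 to 0.946), were included most of the time in AAV-GFP and nearly always in AAV-Cre, and those of Trp53inp1 (0.392 to 0.801), Luc7l2 (0.290 to 0.567) and Sirt2 (0.283 to 0.683) started lower, per the authors' deposited table of local variations. Axin1, a scaffold of Wnt signalling, had opposite values: 0.185 by junction usage (q = 0.430) and a group PSI of 0.313 under AAV-GFP and 0.071 under AAV-Cre, both from the authors' deposited tables.

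Splicing regulators held a number of the members. Of 37 SR proteins and related factors 7 had a member event and 2 of these were called, both composite (Srsf3 and Srsf2). Below them stood a composite event of Rsrp1, with a largest value of 0.357 just outside the q threshold (q = 0.0517), and an exon of 36 nt in Srsf7, with 0.0295 (q = 0.0903), per the authors' deposited table. Of 66 hnRNPs and other regulators 10 had member events, 12 cassette exons (8 lower, 4 higher) and 1 composite, and 5 were called: Pcbp2, Hnrnph1 and Mbnl2 fell, Hnrnpl rose and the composite event of Hnrnpr has values of both signs. The median change of their cassette exons was -0.0960, against -0.0448 over all 131. Among all cassette exons 79 of 131 were lower, and 33 of all 219 members were called (15.1%). No share over all genes was taken beside 7 of 37 and 10 of 66.

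More than 1 exon was listed for some genes. Ptbp1, a repressor of neuronal exons, had 3, with -0.136 (78 nt, q = 0.311), -0.0787 (34 nt, q = 0.412) and 0.00862 (31 nt, q = 0.629) per the authors' deposited table. In all, 5 genes had 2 or more cassette exons and 22 member genes had more than 1 listed event of any class.

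The other lists are also small, and each leaves out members of like function, so their counts are those of the list and not of the function. For all members the share of calls was 15.1%. Of 86 genes of the cytoskeleton, adhesion and junctions 13 had a member event, and the 2 called, Afdn and Fn1, both rose. Next by q stood Numb and an exon of 33 nt in Ppfibp1, a liprin (-0.420, q = 0.209), per the authors' deposited table. Of 85 genes of chromatin and transcription 3 had a member event, and Mlx and Mta1 were called while Yap1 was not (-0.234, q = 0.471, per the authors' deposited table). Outside this list, the transcription genes Med6, Gtf2h1 (0.338, q = 0.106) and Gtf2a2 had higher values per the authors' deposited table. Also outside it, Kat5 (-0.552, q = 0.565) and Cbfb (-0.0435, q = 0.620) had lower values per the authors' deposited table. Among 52 genes of the core spliceosome and mRNA ends only Prpf38b and Supt5 were members, and Supt5 fell. Among 45 genes of ubiquitin, protein quality control and cell cycle 5 were members and Smc5 was called, ahead of a composite event of the cyclin gene Ccnl1 just outside the threshold (-0.407, q = 0.0530) per the authors' deposited table.

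Of the 75 genes listed for liver metabolism and plasma proteins only Nadk was a member, while Asl, of the urea cycle (-0.102, q = 0.648), and the plasma protein gene Gc (largest value -0.0294, q = 0.628) were members outside the list, per the authors' deposited table. So were composite events of Serpina7 and H6pd, which have no finite change. Membrane traffic, lysosome and mitochondria had 7 of 61 genes among the members and kinase and GTPase signalling 4 of 68, with 0 called in each at the authors' q, though all were listed at p below 0.05. The called exons of Rab2a, Necap1 and Cd68, which also belong to traffic or the lysosome, are not on the first list. On it, Dpp7 had -0.433 (119 nt, q = 0.186) and Opa1, the mitochondrial fusion GTPase, 0.369 (54 nt, q = 0.342), per the authors' deposited table. On the second list, a composite event of the phosphatase subunit gene Ppp6r3 had 0.439 (q = 0.130) and an exon of 114 nt in Rapgef1 -0.442 (q = 0.278), per the authors' deposited table.

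The 4 mutually exclusive pairs were all coding. In such a pair a transcript takes one exon or the other, so the 2 changes mirror each other. Dynamin 2 (Dnm2), which pinches off endocytic vesicles, has 2 exons of 139 nt each, of which 68.3% of bases are identical position by position. The first had -0.298 and the second 0.298 (q = 0.387) per the authors' deposited table. Slc39a14, the zinc and iron transporter ZIP14, has 2 exons of 170 nt with 67.6% identical bases. Its first exon in the transcript had -0.347 and the second 0.347 (q = 0.589) per the authors' deposited table.

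The exons of the other two pairs differ in length. In Actn1, the crosslinker alpha-actinin, the first exon in the transcript (81 nt) had 0.190 and the second (66 nt) -0.190 (q = 0.466) per the authors' deposited table. Both lengths are divisible by 3. In the histone gene H2afz the first exon (39 nt) had -0.0506 and the second (61 nt) 0.0506, with the lowest q of the 4 pairs (0.125), per the authors' deposited table. The lengths of these H2afz exons leave remainders of 0 and 1 when divided by 3, so their exchange shifts the frame. None of the 4 pairs was called.

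**Figure D4:**
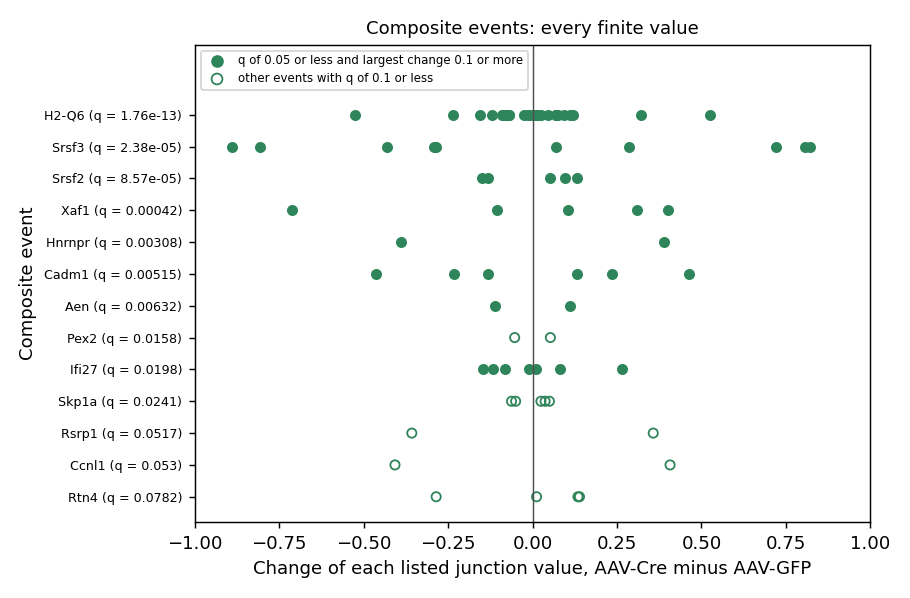
Every finite value (horizontal axis, change AAV-Cre minus AAV-GFP) of the composite events with a gene name and a q of 0.1 or less, 1 row per event with its q; filled points are called events. Srsf3 has the most extreme values, -0.889 and 0.821, and every row holds values on both sides of 0.

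Composite events join several splice sites at once, and the table gives them as a set of positions with several changes that sum to 0 within subsets. Which change belongs to which junction is not given in the table, so signs are reported without a direction of inclusion. Of the 84, 78 had at least 1 finite change, 34 had all changes finite and 6 had none. The 55 with a gene name had a median of 6 positions and the largest change had a median absolute size of 0.214. Of the 17 called, 8 had a gene name, and in 2 further named events with a q under 0.05 the largest change stayed under 0.1: Pex2 (-0.0528, q = 0.0158) and Skp1a (-0.0621, q = 0.0241) per the authors' deposited table.

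The floxed gene itself was among the called composite events. This shows that its junctions differ between the labelled groups, but not which exons were lost. For Srsf3 (chromosome 17, positions 29032786 to 29040773) the 10 values formed 4 subsets that sum to 0 and ran from -0.889 to 0.821 (q = 2.38e-05) per the authors' deposited table. Srsf2, the SR protein also called SC35, had 5 values from -0.149 to 0.131 (q = 8.57e-05) per the authors' deposited table. Hnrnpr, an RNA-binding protein, had 2 finite values, 0.390 and -0.390 (q = 0.00308), per the authors' deposited table. An alternative 5′ site of Hnrnpr had -0.483 (q = 0.371) per the authors' deposited table.

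Both Xaf1 and Ifi27 are known as interferon-induced genes. For Xaf1 the values ran from -0.711 to 0.402 (q = 0.000420), and for Ifi27 from -0.147 to 0.265 (q = 0.0198), per the authors' deposited table. Cadm1, an adhesion protein of the immunoglobulin family, had 3 mirrored pairs, the largest 0.462 and -0.462 (q = 0.00515), per the authors' deposited table. Aen, a nuclease induced by p53, had 0.111 and -0.111 (q = 0.00632) per the authors' deposited table.

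The lowest q of all members, 1.76e-13, belonged to the event named H2-Q6, with a largest change of 0.525, per the authors' deposited table. Its 15 positions span 209433 nt on chromosome 17, a stretch that holds 7 protein-coding genes of vM21, 6 of them of the H2-Q family of MHC class I. Reads of such near-identical copies can join across genes, so the event cannot be assigned to H2-Q6 alone.

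Composite events without a gene name covered many more positions. Of these 29, 8 lay on chromosome 9 near 3000031, 12 on scaffolds that are not placed on a chromosome and 9 elsewhere. Their median was 24 positions and the highest 534, with spans of up to 1939319 nt, against a longest span of 209433 nt for the named events. They gave 9 of the 17 composite calls, and without them 8 of 55 named composite events were called.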

How the data were processed

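Libraries of stranded mRNA from 4 AAV-Cre and 4 AAV-GFP hepatocyte cultures were compared by the authors, and grouped here by the labels. The labels do not say that libraries of a group came from separate animals, so the authors' p-values may measure technical spread only. The submitters' processing notes name STAR, FastQC and mm10; their versions, and those of the splicing tools, were not given in the sources used here. The authors' deposited table of junction usage (JUM, per the file headers) holds p-values, q-values and changes in PSI, a fraction. The authors' deposited table of local variations, in the column layout of VOILA per the file headers, holds group PSI as a fraction. Neither holds values per library, so no test over libraries, interval or SD was possible, and none was made over events.

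Exons were matched to GENCODE vM21 (GRCm38, the mm10 build) by exact coordinates. The deposited exon starts lie 1 below, and the starts of the exon to the right 2 below, the 1-based annotation. With these offsets 121 of 131 exons and the flanking exon edges of all 131 matched. Exon numbers are those of a vM21 transcript that holds the exon. Place was taken over all transcripts, and an exon that was wholly coding in any of them was placed as coding. The reference exons were internal coding exons, and sequences came from vM21 transcripts. Table reading, classes and calls were tested on simulated data. Of the cassette exons, 5 overlap an exon of another gene (1 called, Pcbp2).

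The members, gene lists and rules were chosen with earlier results of these data known. Named were Srsf3, every called event, the 3 largest values per length class and direction, exons under 28 nt, mutually exclusive pairs, the 5 composite events of lowest q and up to 4 genes per list by q. Any other gene was picked once its values were known. A gene with listed exons is counted but not reported here by name. Alternatives changed thresholds, class limits, transcripts and which events were counted. Computation used Python 3.11.15 and matplotlib 3.10.9.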

Additional observations from a re-analysis of the deposited data

How the results depend on the processing

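No paired analysis was possible because both tables hold 1 value per group or comparison, and for the same reason no replicate could be left out. Of 39 alternatives 27 left the result within the limits set for it, 12 moved it and 0 reversed a direction. At p below 0.05 in place of q, with a change of 0.1, 94 cassette exons, 65 composite events and 3 mutually exclusive pairs passed, in place of 16, 17 and 0. With only events that have a gene name, an alternative chosen after seeing the data, 8 composite events passed. At a q of 0.05 or less the lower share of cassette exons was 72.2%, in place of 60.3%. Among called exons alone, short exons made up 18.8%, long exons 31.2% and lengths divisible by 3 50%, from only 16 exons. With class limits of 31 and 120 nt, the middle class held 64.1% and the long class 29%. Exons in a UTR, whole or in part, numbered 9 with basic and 11 with protein-coding transcripts, in place of 19, because fewer transcripts were read. Depth is unknown, so how far it limits these calls was not tested.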
